A study of Mus musculus with 10 samples.

Results

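Growth hormone, the receptors for growth hormone and insulin-like growth factor 1 (IGF1), IGF1 itself and 5 of its binding proteins were followed across the cells of the mouse pituitary. The members are the genes Gh, Ghr, Igf1, Igf1r, Igfbp2, Igfbp3, Igfbp4, Igfbp5 and Igfbp7, chosen by name. They are 9 of the 44288 gene names in the count tables. Each was read in 10 single-cell RNA libraries as UMIs (unique molecular identifiers, each marking a captured RNA molecule) per 10000 UMIs, and as the share of cells with at least 1 UMI.

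All mice were of the outbred CD1 stock. A pair of libraries was made with the 10X Genomics droplet system, 1 from WT females and 1 from WT males of 8 weeks. The other 8 were made by Drop-seq, which captures cells on barcoded beads in droplets. WT females (n = 2) and WT males (n = 2) of 8 weeks came in 2 pairs of a library of each sex that share a code in their titles, whose meaning is not given, and each of these libraries pooled a pair of mice. The transgenic group was a single library of 8-week females carrying mt/hGRF, also from a pair of mice. This transgene places human growth hormone releasing hormone (GHRH) under a metallothionein promoter, which is active in many tissues. The pool sizes at 8 weeks are those of the paper's methods, and its results also give other counts of mice. At 13 weeks there was 1 library from a single virgin WT female and 2 libraries from lactating WT females.

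GH is made by somatotropes of the anterior lobe, which respond to hypothalamic GHRH. It acts through GHR, JAK2 and STAT5 to raise IGF1, chiefly in the liver, and IGF1 acts through IGF1R on tissues and back on the pituitary. IGF binding proteins hold IGFs in the circulation and near cells, and are themselves cut by proteases.

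By the GENCODE annotation of GRCm38 (mm10), all 9 are protein-coding. Gh lies at chr11:106300271-106301865 on the minus strand, Ghr at chr15:3317760-3583492 on the minus strand, Igf1 at chr10:87858265-87937042 on the plus strand and Igf1r at chr7:67952827-68233668 on the plus strand. Igfbp3 lies at chr11:7206086-7213923 on the minus strand, Igfbp4 at chr11:99041244-99054392 on the plus strand and Igfbp7 at chr5:77349240-77408041 on the minus strand. Igfbp2 (chr1:72824503-72852474, plus strand) and Igfbp5 (chr1:72857932-72874884, minus strand) face each other with 5457 bases between their ends. These neighbours were also the members with the largest shares of their UMIs in Sox2-gated cells, so the 250 bases before the start of each are shown.

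The sequences are from RefSeq (GRCm38.p6), at chr1:72824230-72824479 on the plus strand for Igfbp2 and chr1:72874866-72875115 on the minus strand for Igfbp5, 5′ to 3′. Capitals mark GGGCGG, the GC box core, searched on both strands.
Igfbp2: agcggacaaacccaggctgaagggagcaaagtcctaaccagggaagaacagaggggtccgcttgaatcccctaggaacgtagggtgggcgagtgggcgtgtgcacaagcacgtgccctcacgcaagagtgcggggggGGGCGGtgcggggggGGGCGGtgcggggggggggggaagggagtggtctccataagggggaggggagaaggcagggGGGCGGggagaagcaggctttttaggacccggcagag
Igfbp5: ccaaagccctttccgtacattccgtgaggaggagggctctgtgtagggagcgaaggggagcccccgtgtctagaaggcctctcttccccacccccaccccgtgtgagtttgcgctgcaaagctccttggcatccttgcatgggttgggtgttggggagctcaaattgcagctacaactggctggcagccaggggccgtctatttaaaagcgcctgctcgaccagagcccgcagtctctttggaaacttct
The Igfbp2 window held 3 GGGCGG and was 67.2% G or C, and the Igfbp5 window held 0 and was 58.8% G or C. GGGCGG occurred in 32.7% of 32851 mouse promoters of this length. TATAAA (12.4% of promoters), the SOX core ACAAT (27.7%) and the STAT site TTCNNNGAA (7.02%) were in neither window, which says nothing about the factors that bind there. RefSeq lists a second Igfbp2 start inside the gene, whose window (chr1:72825137-72825386) held 0 of any of these motifs and was 56.4% G or C, so the difference in GGGCGG between the genes holds only for the first start.

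After filters on UMIs, genes and mitochondrial share, 23432 cells remained (978 to 5256 per library), with 960289 to 5080590 UMIs per library and a median of 534 to 1246 UMIs per cell. The mitochondrial limit removed 37.1% of cells in the transgenic library against 6.94% to 22.9% elsewhere. Cells with over 150 ribosomal pseudogene UMIs per 10000 made up 5.85% to 15.3% of each 8-week WT library against 0% to 0.561% in the others, and at most 6 barcodes were shared by a pair of libraries. Reads assigned to Ghrh matched the transgenic label, with 227 UMIs in that library and 0 or 1 in each of the other 9. They were counted under the mouse gene name, and whether they come from the human transgene was not checked.

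Cells were assigned to classes by lists of marker genes that hold no member. The gates took 1181 somatotrope, 1135 lactotrope, 309 gonadotrope, 2074 melanotrope, 496 Sox2 stem and supporting, 972 C1q macrophage, 70 pituicyte, 59 endothelial, 30 mural, 81 T and NK and 320 red blood cells, and left 14142 of 23432 cells (60.4%) in no class. Hormone genes outside the lists stood higher in the classes named for them than in macrophages, the class they are set against here. No hormone gene was used to check the Sox2 gate. Prl lay at 483 to 2056 per 10000 in lactotropes, Pomc at 843 to 2323 in melanotropes and Cga at 47.2 to 171 in gonadotropes, against 2.82 to 378, 11.2 to 77.9 and 0 to 10.6 in macrophages. The stromal and corticotrope lists did not follow their names. They were carried by Col1a2 and by Tnnt1 and Tnni3, and cells of the stromal gate had Prl at 66.0 to 1855 per 10000. Stromal values are therefore from revised lists without these genes and without pseudogene-rich cells, a choice made after seeing the data (194 cells, at least 10 in 9 libraries). The 71 revised corticotropes reached 10 cells in only 2 libraries, so no test of theirs is given, although they stand in the plot of levels, in the reference of the tests with revised lists and among the classes over which likeness is computed.

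Among classes with at least 10 cells in 8 or more libraries, the summed Gh level was highest in somatotropes in all 10 libraries, and was read at lower levels in every other class. In somatotropes it stood at 1619 and 3007 per 10000 in the 10X female and male, 1724 and 922 in the Drop-seq WT females, 2368 and 1366 in the WT males, 2488 in the transgenic, 2857 in the virgin, and 1179 and 2321 in the lactating libraries. The highest library was thus the 10X male, and the lowest was the second WT female library, which was also the lowest in each of the other classes met in all 10 libraries. The mean was 1985 ± 721 (SD, n = 10).

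Macrophages, which do not make GH, were taken as a measure of free RNA. Their Gh level was 86.3 and 112 in the 10X libraries, 189 and 8.98 in the WT females, 471 and 79.7 in the WT males, 225 in the transgenic, 217 in the virgin, and 143 and 313 in the lactating libraries. The mean was 184.5 ± 133 (SD, n = 10). Red blood cells, read in the 8 Drop-seq libraries alone, had a mean of 180 ± 136 (SD, n = 8). Within those libraries macrophages stood at 0.814 to 2.43 times red blood cells (median 1.36). The 81 T and NK cells had 109 when pooled. Somatotropes were 5.03 to 103 times above macrophages of the same library (median 12.1).

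Sox2 cells, melanotropes, lactotropes and gonadotropes lay between somatotropes and macrophages. The corticotrope gate, which did not follow its name, stood at 0.276 to 3.25 times macrophages in 5 libraries (median 0.418). Revised corticotropes stood at 0.297 and 6.41 times macrophages in 2 libraries. Mean Gh levels were 834 ± 442 in Sox2 cells, 790 ± 567 in melanotropes, 640 ± 316 in lactotropes and 534 ± 348 in gonadotropes (SD, n = 10 each). Neighbours in that order were not separated, since Sox2 cells were above melanotropes in 8 of 10 libraries, melanotropes above lactotropes in 4, and lactotropes above gonadotropes in 6. Lactotropes were above macrophages in 10 of 10 libraries (2.15 to 21.7 times, median 3.31), and gonadotropes likewise (1.12 to 14.2 times). Somatotropes were 1.68 to 6.15 times above lactotropes (median 3.18) and 1.07 to 4.78 times above Sox2 cells (median 2.64), the narrowest gap being in the first WT female library. Barcodes with too few UMIs to count as cells carried 635 to 3732 Gh UMIs per 10000 in 9 libraries (the second lactating library had only 8 such barcodes, with 91 UMIs and 0 of Gh, and is left out). These were above the macrophage level of the same library in 9 of 9 libraries, and above the somatotrope level in 4. The 4 were the first WT female library (2222 against 1724 in somatotropes), both WT male libraries (3732 against 2368 and 1487 against 1366) and the first lactating library (1281 against 1179). In the 10X male the values were 2985 and 3007, and somatotropes were 0.635 to 3.80 times the low-UMI level (median 1.01). Whether such barcodes hold free RNA or poorly captured cells was not tested, and neither was the part of free RNA in somatotropes or the other classes. The few endothelial and mural cells had 1329 and 1542 Gh UMIs per 10000 when pooled (782 for mural cells without the transgenic library), and 514 in the 1 library with at least 10 endothelial cells.

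**Figure D1:**
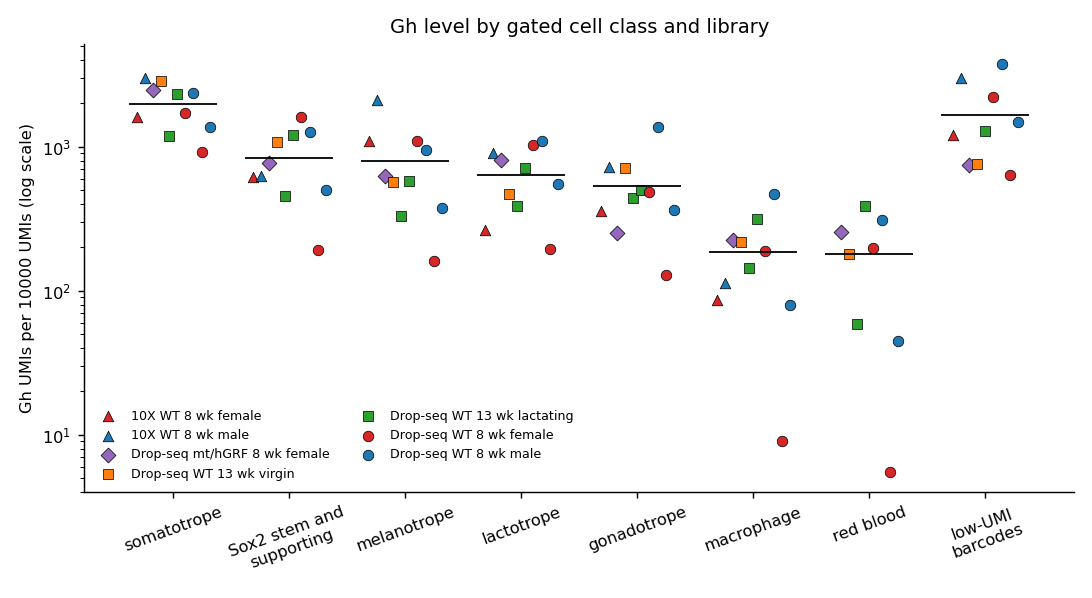
Gh UMIs per 10000 UMIs (log scale) in 7 gated classes and in low-UMI barcodes, with 1 point per library (shape for platform or age, colour for group) and a bar at the mean. Somatotropes (mean 1985) stand above the other classes in each of the 10 libraries but below the low-UMI barcodes in 4 of 9, while the clouds of Sox2 cells, melanotropes, lactotropes and gonadotropes overlap, and macrophages (mean 184.5) are the lowest of those plotted together with red blood cells.

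The share of cells with a Gh UMI carried little information on identity. It was 99.4% to 100% in somatotropes (median depth 889.5 to 1213 UMIs per library) and 51.2% to 100% in macrophages (680 to 1781 UMIs). After each cell was thinned to 300 UMIs the macrophage share was still 16.3% to 100%. Gh took a median of 8.10% to 17.2% of a somatotrope's UMIs, 0.549% to 10.2% of a lactotrope's, 0.729% to 19.2% of a Sox2 cell's and 0.0184% to 4.08% of a macrophage's. Among classes of at least 10 cells this median was highest in somatotropes in 9 libraries. The exception was the first WT female library, where it was 19.2% in 51 Sox2 cells against 14.35% in 26 somatotropes, with 60.8% and 88.5% of the cells over 10%. In melanotropes the median was 0.305% to 7.52%, with 4.79% to 39.2% of cells per library over 10%. Their pooled Gh level was 1561 per 10000 by 10X and 478 by Drop-seq. In the 10X female and male their 90th percentile was 24.8% and 41.95%, against medians of 2.34% and 7.52%. Whether the melanotrope and Sox2 gates hold somatotropes was not tested, so their Gh values here and below are those of the gates. Once the macrophage level of the same library was subtracted, somatotropes still had a mean of 1801 and at least 913 per 10000. With the low-UMI barcodes as the background instead, the difference ran from -1364 to 2105 and was below 0 in the 4 libraries named above. The somatotrope gate, with 5.04% of cells, held 16.8% of all 2436223 Gh UMIs, and cells of no class held 52.9%.

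Each class was then tested against the mean of the other classes within libraries by edgeR, and 6 members passed the filter on low counts. Ghr, Igf1 and Igfbp3 did not. Igfbp2, Igfbp4 and Igfbp7 passed it through the few classes in which they are high, so no class test is given for them, and Gh, Igf1r and Igfbp5 are tested below. Igfbp5 is given only from a fit of classes with at least 20 cells and from the revised lists. Gh was 2.69 ± 0.30 (log2, SE) higher in somatotropes (adjusted p = 9.3e-13), 1.35 ± 0.31 higher in melanotropes (adjusted p = 0.00027) and 1.05 ± 0.31 higher in Sox2 cells (adjusted p = 0.0076). It was 1.16 lower in macrophages (log2 difference -1.16 ± 0.37, adjusted p = 0.0063), a call lost when 3 marker UMIs were required (-0.95, adjusted p = 0.057). For lactotropes (0.71 ± 0.32, adjusted p = 0.081) and gonadotropes (0.07 ± 0.33) the threshold was not passed. The gonadotrope difference was below 0 in 6 of 10 alternatives and passed as lower in cells free of any other list's UMIs (-0.995, adjusted p = 0.012). The reference is a mean over classes that differ in number of libraries, and it includes the stromal and corticotrope gates that did not follow their names. With the revised lists Gh was 2.41 ± 0.23 higher in somatotropes (adjusted p = 1.1e-17), 1.18 ± 0.24 in melanotropes (adjusted p = 1.8e-05) and 1.07 ± 0.23 in Sox2 cells (adjusted p = 9.1e-05), and 1.33 lower in macrophages (-1.33 ± 0.27, adjusted p = 1.0e-05). Limiting the fit to classes of at least 20 cells gave 2.21 ± 0.27 in somatotropes, 0.81 ± 0.30 in melanotropes and 0.59 ± 0.32 in Sox2 cells, where the call was lost (adjusted p = 0.15).

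Calls in this fit were frequent over all genes, so single calls are read against that. In somatotropes 32.0% of all genes passed, and 29.3% with the revised lists. In lactotropes it was 28.7%, in gonadotropes 19.8%, in melanotropes 35.2%, in Sox2 cells 19.2% and in macrophages 39.5%. The fit with at least 20 cells moved the balance of all calls: the share of calls that were higher went from 84.5% to 59.7% in somatotropes, from 82.4% to 57.7% in lactotropes, from 85.7% to 64.3% in melanotropes, from 92.0% to 59.3% in Sox2 cells and from 71.8% to 44.9% in macrophages. The median log2 difference of all genes in somatotropes went with it from 0.30 to 0.02.

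**Figure D2:**
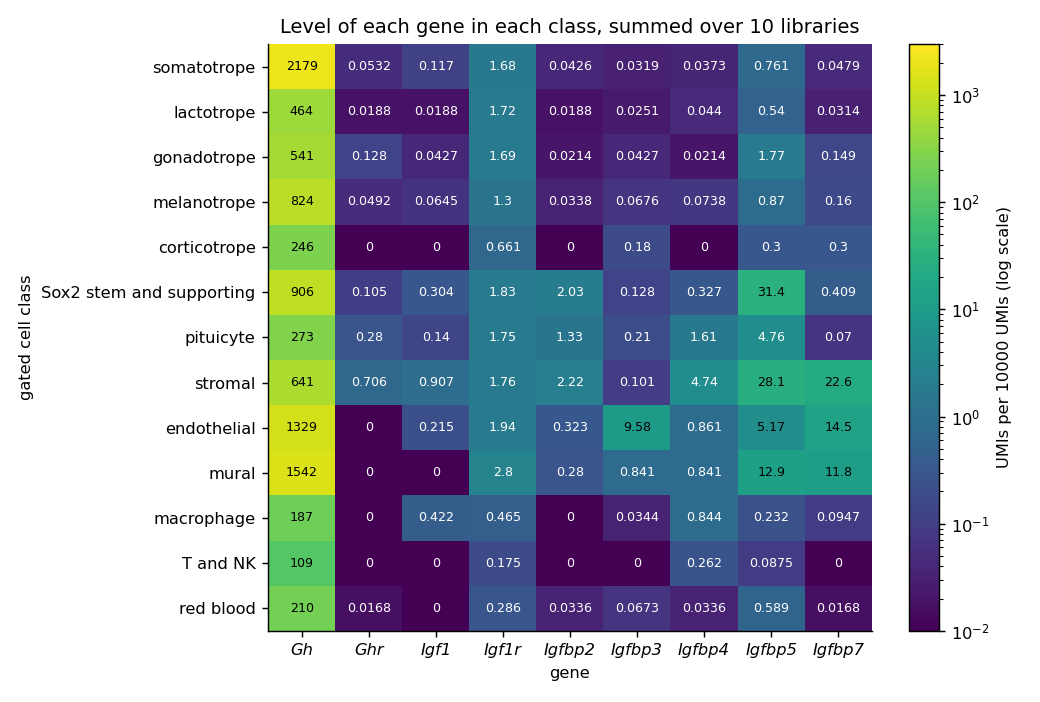
Level of each of the 9 genes in each gated class as UMIs per 10000 UMIs, summed over the 10 libraries (colour on a log scale, value printed in each cell; stromal and corticotrope rows from the revised lists). Gh is present in every row, Igf1r is spread over most rows, and the highest binding protein values lie in Sox2, stromal, endothelial and mural rows, with Igfbp4 also in macrophages (0.8435) and pituicytes (1.61, or 2.99 without the 10X male and 0.789 without the virgin library).

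Ghr, the receptor of GH, was near the limit of detection. The 23432 cells held 117 Ghr UMIs in 105 cells, and the level over all cells was 0.024 to 0.093 per 10000 in the 10 libraries. With both platforms pooled, stromal cells had the highest level, 0.706 per 10000 (95% Poisson interval 0.386 to 1.18, counting error only), from 14 UMIs in 11 of 194 cells (5.67%). Within each platform they were not the highest. By Drop-seq they had 0.435 (6 UMIs) against 0.448 in pituicytes (3 UMIs). By 10X they had 1.32 (8 UMIs in 57 cells) against 1.82 in mural cells (1 UMI). Stromal cells were above macrophages in 6 of 9 libraries. Somatotropes had 10 UMIs in 9 of 1181 cells (0.0533 per 10000). Macrophages had 0 Ghr UMIs in 972 cells, which allows a level of up to 0.0258 per 10000. At a median of 680 to 1781 UMIs per cell this sets no limit on the share of cells that express the gene. Ghr passed the filter on low counts only with the revised lists, in which stromal cells are the highest class when pooled, so no test is given for it.

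Igf1r, the receptor tyrosine kinase for IGF1, was read throughout the endocrine and supporting cells at like levels. Means over 10 libraries were 1.995 ± 0.91 per 10000 in gonadotropes, 1.90 ± 0.68 in somatotropes, 1.85 ± 0.87 in lactotropes, 1.77 ± 0.88 in Sox2 cells and 1.44 ± 0.34 in melanotropes (SD). No neighbours in this order were separated, each being above the next in 5 or 6 of 10 libraries. Macrophages were lower, at 0.459 ± 0.328, and below somatotropes in 10 of 10 libraries.

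The library values show how few UMIs lie behind these means. In somatotropes Igf1r stood at 1.42 and 1.16 per 10000 in the 10X female and male, 0.823 and 2.36 in the WT females, 2.26 and 1.96 in the WT males, 1.77 in the transgenic, 1.88 in the virgin, and 3.25 and 2.085 in the lactating libraries. In macrophages of the same libraries it was 0.165, 0.498, 0.629, 0.176, 0.276, 0.413, 0.232, 0.414, 0.501 and 1.285. The somatotrope value of 0.823 in the first WT female library rests on 3 UMIs, and the groups overlap there with the highest macrophage value. An Igf1r UMI was found in 20.2% of somatotropes (95% exact binomial interval 18.0% to 22.6%) and 4.84% of macrophages (3.57% to 6.38%, 47 of 972).

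By edgeR, Igf1r was higher in somatotropes (0.87 ± 0.21, log2, adjusted p = 0.00041), lactotropes (0.79 ± 0.22, adjusted p = 0.0027), melanotropes (0.74 ± 0.20, adjusted p = 0.0022) and Sox2 cells (0.63 ± 0.23, adjusted p = 0.030), and lower in macrophages (-1.17 ± 0.29, adjusted p = 0.00036; -0.87 with adjusted p = 0.070 in cells free of any other list's UMIs). The gonadotrope difference of 0.47 ± 0.25 did not pass. With at least 20 cells the Sox2 call was lost (adjusted p = 0.10), and with the revised lists those of Sox2 cells (0.47, adjusted p = 0.084) and lactotropes (0.48, adjusted p = 0.058) were. The somatotrope call was lost in the 8-week WT libraries alone (0.51, adjusted p = 0.098). Over all cells the 10X libraries were the lowest of the 10, at 0.977 and 0.555 against 1.27 to 2.23 by Drop-seq. Without pseudogene-rich cells they were 1.35 and 1.03 against 1.38 to 2.615.

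Igf1, the growth factor itself, was sparse, with 217 UMIs in 180 cells. Stromal cells had 0.907 per 10000 (0.538 to 1.43; 12 of 194 cells), macrophages 0.422 (0.312 to 0.558; 36 of 972 cells, 3.70%) and Sox2 cells 0.304 (0.198 to 0.445; 21 of 496 cells). These pooled levels are above the 0.117 of somatotropes (0.0739 without the second WT female library, which held 9 of their 22 UMIs) and above red blood cells, where 320 cells had 0 UMIs, which allows a level of up to 0.0505 per 10000. Within libraries, stromal cells were above macrophages, Sox2 cells and somatotropes in 5 of 9 each. The transgenic library gave 7 stromal UMIs in 25 cells (3.02 per 10000). Macrophages and Sox2 cells were each above somatotropes in 9 of 10 libraries. Since macrophages hold more Igf1 than most classes, red blood cells were taken as a measure of free RNA for this gene. Low-UMI barcodes gave another, from 0 in the transgenic and virgin libraries to 0.334 per 10000 in the first WT male library. That highest value rests on 8 UMIs and exceeds the red blood limit. The part of free RNA in the Igf1 values was not tested.

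Macrophage Igf1 was met in 9 of 10 libraries, at 0.386 and 0.747 per 10000 in the 10X libraries, 0.472 and 0 in the WT females, 0.138 and 0.206 in the WT males, 0.774 in the transgenic, 0.322 in the virgin, and 0.501 and 0.302 in the lactating libraries. Like Ghr, Igf1 passed the filter only with the revised lists, and no test is given for it.

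Igfbp5 was concentrated in Sox2 stem and supporting cells, which were 2.12% of cells and held 44.2% of its 6091 UMIs. IGFBP5 binds IGFs and extracellular matrix. Its level in Sox2 cells was 11.8 and 14.2 per 10000 in the 10X libraries, 29.0 and 76.7 in the WT females, 51.3 and 69.7 in the WT males, 25.8 in the transgenic, 37.6 in the virgin, and 17.65 and 24.0 in the lactating libraries. Both 10X values were below every Drop-seq value. The mean was 35.8 ± 22.9 (SD, n = 10), against 0 to 0.680 in macrophages.

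Within libraries Igfbp5 in Sox2 cells was 15.3 to 106 times its level in somatotropes, in 10 of 10 libraries. An Igfbp5 UMI was found in 332 of 496 Sox2 cells (66.9%, median depth 752 to 1943 UMIs) and 23 of 972 macrophages (2.37%, 680 to 1781 UMIs). After thinning to 300 UMIs the Sox2 share was 19.2% to 68.8%. In classes of at least 20 cells, edgeR placed Igfbp5 4.79 ± 0.24 (log2) higher in Sox2 cells (adjusted p = 4.8e-29), and lower in somatotropes (-0.96 ± 0.32, adjusted p = 0.015), lactotropes (-1.29 ± 0.37, adjusted p = 0.0045) and macrophages (-2.77 ± 0.42, adjusted p = 1.5e-08). This fit is an alternative to the main one, whose Igfbp5 values are not given here. It moved the balance of all calls towards lower, as said above, and the lower calls are read against that. The mean of the other classes also holds Sox2 cells, whose high level raises it. The lower calls thus cannot show whether somatotropes or lactotropes differ from the other endocrine classes. Mean levels over 10 libraries were 1.53 in gonadotropes, 0.893 in melanotropes, 0.865 in somatotropes, 0.796 in lactotropes and 0.212 in macrophages. Gonadotropes were above somatotropes in 8 of 10 libraries, and somatotropes above lactotropes in 7 and above macrophages in 8.

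Stromal cells shared this gene with Sox2 cells. Their Igfbp5 level was 52.1 and 12.5 per 10000 in the 10X libraries, 14.6 in the second WT female library, 21.9 and 10.2 in the WT males, 59.9 in the transgenic, 44.7 in the virgin, and 36.4 and 5.99 in the lactating libraries. Sox2 cells were above stromal cells in 5 of 9 libraries, so neither class was consistently the higher. Pooled levels of 12.9 in mural, 5.17 in endothelial and 4.76 in pituicyte cells followed. A single mural cell of the second WT male library held 26 of the 46 mural UMIs, and the mural level was 5.78 without that library. The pituicyte level was 8.83 without the 10X male library, and the endocrine classes lay at 0.540 to 1.77.

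Igfbp2, which binds IGF2 with preference, followed Sox2 and stromal cells with far fewer UMIs. Sox2 cells held 47.3% of its 368 UMIs. Their level was 0.942 and 1.17 per 10000 in the 10X libraries, 3.21 and 0 in the WT females, 2.02 and 2.34 in the WT males, 2.84 in the transgenic, 3.04 in the virgin, and 0.967 and 1.48 in the lactating libraries. The 0 comes from a library with only 16 Sox2 cells. With the revised lists stromal cells were above Sox2 cells in 6 of 9 libraries, at means of 2.26 and 1.715 per 10000. An Igfbp2 UMI was found in 83 of 496 Sox2 cells (16.7%), 30 of 194 stromal cells and 11 of 70 pituicytes. Macrophages had 0 UMIs in 972 cells, which allows a level of up to 0.0258 per 10000. Somatotropes had 0.0426 per 10000, below Sox2 cells in 9 of 10 libraries.

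Igfbp3, which encodes the main IGF carrier of serum, had its highest level in endothelial cells. The 59 endothelial cells were 0.252% of cells and held 89 of its 242 UMIs (36.8%), at 9.58 per 10000 (7.69 to 11.8), and 25 of 59 (42.4%, 29.6% to 55.9%) had a UMI. Macrophages had 0.0344 (0.0196 without the first lactating library) and somatotropes 0.0319 per 10000. Endothelial cells reached 10 in only 1 library, so this was not tested.

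Igfbp7, a vascular and matrix protein with low affinity for IGFs, was read in stromal, endothelial and mural cells. The stromal level was 36.3 and 24.7 per 10000 in the 10X libraries, 7.29 in the second WT female library, 11.9 and 5.79 in the WT males, 29.3 in the transgenic, 17.4 in the virgin, and 36.9 and 14.0 in the lactating libraries. Every one of these exceeded the pooled macrophage level of 0.0947 (0.0612 without the 10X female library) by more than an order of magnitude. Endothelial cells had 14.5 per 10000 (12.2 to 17.2; 34 of 59 cells) and mural cells 11.8 (12 of 30 cells; 7.28 without the second lactating library). Igfbp5 was 3.98 ± 0.31 (log2, adjusted p = 8.1e-17) higher in revised stromal cells by edgeR, where 13.0% of all genes passed. Gh (0.20 ± 0.26) and Igf1r (0.05 ± 0.31) did not pass there.

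Igfbp4, whose product is cut by the protease PAPP-A, was highest in stromal cells, at 4.74 per 10000 (3.83 to 5.80; 53 of 194 cells, 27.3%). Macrophages were above somatotropes in 10 of 10 libraries, and in 9 of 10 with the revised lists. Their values were 1.71 and 1.08 per 10000 in the 10X libraries, 0.472 and 0.176 in the WT females, 0.276 and 1.65 in the WT males, 0.464 in the transgenic, 1.06 in the virgin, and 0.572 and 0.227 in the lactating libraries. These exceeded 0 in each library and varied widely. An Igfbp4 UMI was in 70 of 972 macrophages (7.20%), and red blood cells had 2 UMIs (0.0337 per 10000). Pituicytes, with 15 of 70 cells, had 13 UMIs in the virgin library (8.09 per 10000) and 5 in the second lactating library (2.499), the only ones with at least 10 such cells.

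**Figure D3:**
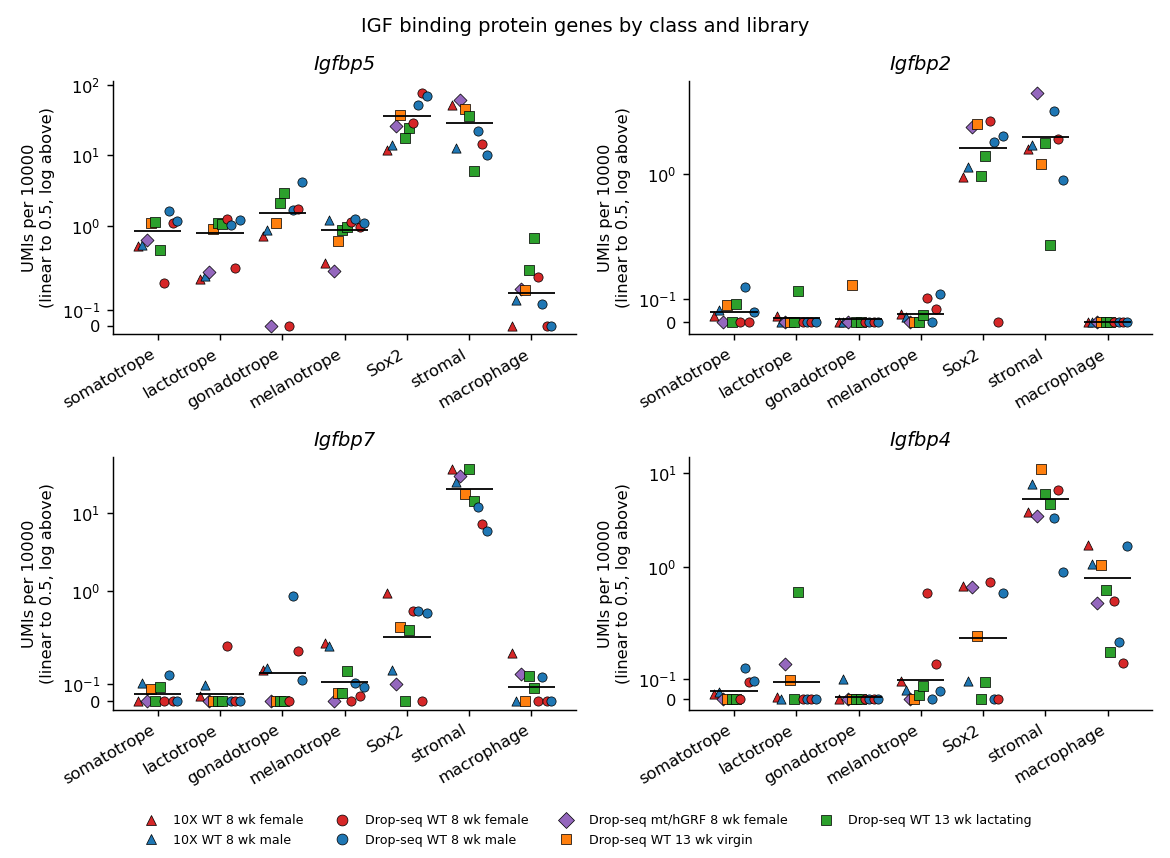
Igfbp5, Igfbp2, Igfbp7 and Igfbp4 as UMIs per 10000 UMIs (axis linear to 0.5, log above) in 7 gated classes, with 1 point per library of at least 10 cells and a bar at the mean; stromal cells are from the revised lists. Igfbp5 (mean 35.8 in Sox2 cells) and Igfbp2 are high in Sox2 and stromal cells, Igfbp7 in stromal cells (mean 20.4), and Igfbp4 in stromal cells and macrophages.

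The transgenic library was compared with WT females of the same age. It is a single library, so the transgene cannot be told apart from other traits of that library. The mitochondrial limit removed 37.1% of its cells, against 16.9% and 10.9% in the Drop-seq WT females. Pseudogene-rich cells were 0.25% of it, against 7.26% and 15.3%. No member passed the test in any class. Over all cells Gh was 1100 per 10000 in the transgenic library against 1338 and 391 in the WT females, so the transgenic value lay between them. In somatotropes the summed level was 2488 against 1724 and 922, above both. The typical somatotrope was not above both, since Gh took a median of 8.47% of its UMIs in the transgenic library against 14.35% and 8.10%, and 43.5% of cells were over 10% against 88.5% and 35.7%. The upper end of the transgenic cells was higher, with a 90th percentile of 43.8% against 23.1% and 22.9%. In lactotropes the summed level was 805 against 1029 and 195.

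Measures of free Gh RNA did not place the transgenic library in 1 order. Macrophages had a summed level of 225 against 189 and 8.98 per 10000, and a median share per cell of 1.67% against 1.87% and 0.0184%. Low-UMI barcodes had 742 against 2222 and 635. The part of free RNA in the somatotrope values was not tested.

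By edgeR, the fitted Gh differences were 0.48 ± 0.88 (log2) over all cells, 1.21 ± 0.77 in somatotropes (adjusted p = 0.65), 0.61 ± 0.61 in lactotropes, -0.55 ± 1.24 in Sox2 cells and 1.11 ± 2.20 in macrophages. A log2 difference of 1 lay within 2 SE of the estimate over all cells, in somatotropes and in lactotropes. Of the members, 0 of 9 passed over all cells while 0.00545% of genes did, 0 of 3 in somatotropes (0.333%), 0 of 2 in lactotropes (0.265%), 0 of 5 in Sox2 cells (0.166%) and 0 of 3 in macrophages (0.0898%). None had an unadjusted p under 0.05, and DESeq2 also called 0 (0.986% of genes over all cells). The change in somatotropes minus that in lactotropes was 0.17 ± 0.96 for Gh, with 0 of 3 members called against 0.0427% of genes.

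The WT female libraries decide these values. Without the first, Gh in the transgenic library was 1.80 higher over all cells, 1.83 in somatotropes and 2.24 in lactotropes (adjusted p = 0.0895), and without the second the differences were -0.21, 0.91 and -0.22.

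The other members had wide errors. Over all cells, where fewer cells of a class and less RNA per cell cannot be told apart, Igfbp3 was 0.168 per 10000 in the transgenic library against 0.0104 (1 UMI) and 0.0986 in the WT females (1.71 ± 0.86, adjusted p = 0.54), and Igfbp7 was 0.575 against 0.4165 and 0.180 (1.15 ± 0.73, adjusted p = 0.64). Both lay above the WT females without passing. Endothelial cells were 0.393% of cells in the transgenic library (11 cells), between the 0.614% and 0.135% of the WT females (6 and 2 cells), and held 15 of its 40 Igfbp3 UMIs and 32 of its 137 Igfbp7 UMIs. The stromal gate before revision held 82 of the 137, and was 10.1% of cells against 5.73% and 7.69%. The revised stromal cells numbered 25 against 6 and 13. The part of either class in the differences was not tested. Igfbp4 was lower than both, at 0.122 against 0.375 and 0.1915 (-1.02 ± 0.59). Differences were -0.91 ± 0.84 for Ghr, -0.72 ± 0.59 for Igf1, 0.39 ± 0.40 for Igf1r, 0.09 ± 0.85 for Igfbp2 and -0.13 ± 0.47 for Igfbp5. The median of the 9 was 0.09, against -0.08 for all 18359 genes tested.

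**Figure D4:**
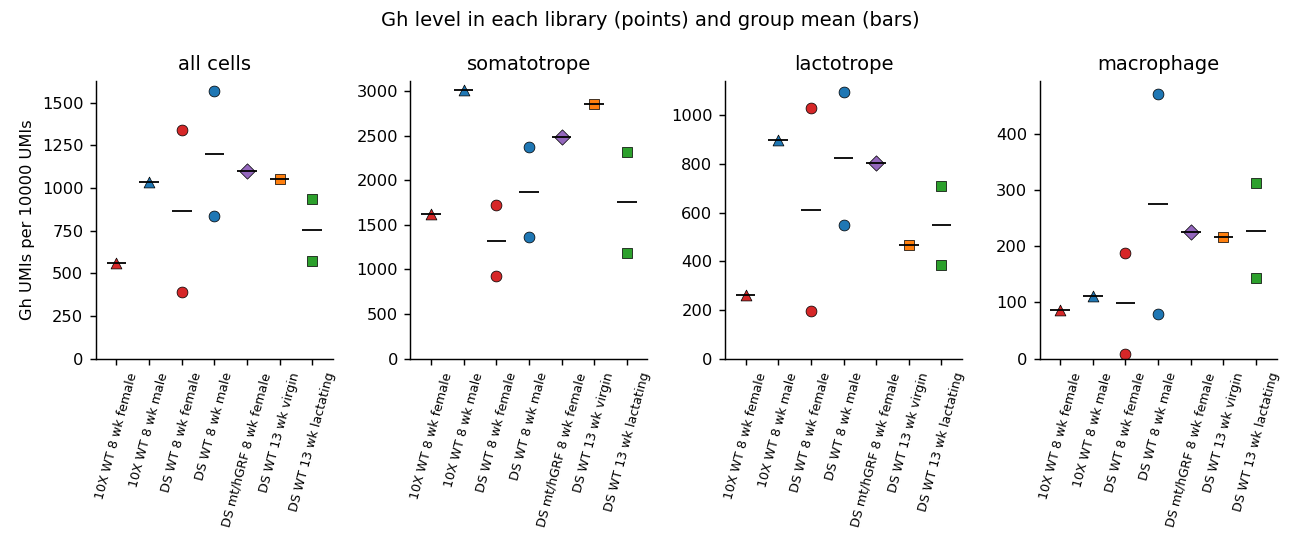
Gh UMIs per 10000 UMIs in all cells, somatotropes, lactotropes and macrophages of each group, with 1 point per library and a bar at the group mean (linear axes from 0, each panel with its own scale). The 2 Drop-seq WT female libraries are far apart in every panel, and the transgenic summed value (2488 in somatotropes) exceeds both of them in somatotropes and macrophages, but not in all cells or lactotropes. The median share per cell, which is not plotted, lies between them in somatotropes (8.47% against 14.35% and 8.10%) and macrophages (1.67% against 1.87% and 0.0184%).

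Lactation was compared with the virgin state at 13 weeks. Gh over all cells was 569 and 938 per 10000 in the lactating libraries against 1051 in the virgin library. In somatotropes it was 1179 and 2321 against 2857, and in lactotropes 386 and 711 against 466. Lactating values were thus below the virgin value over all cells and in somatotropes and on both sides of it in lactotropes. The fitted differences were -0.18 ± 0.88, -0.78 ± 0.78 and 0.41 ± 0.63 (log2).

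In this comparison 0 of 9 members passed over all cells against 0.0109% of genes, 0 of 3 in somatotropes (0.0238%) and 0 of 2 in lactotropes (0.0442%) by edgeR, none at an unadjusted p under 0.05, and DESeq2 called 0 (0.0272% of genes over all cells). Igfbp2 over all cells was 0.0556 and 0.0846 against 0.261 (-1.57 ± 0.81), and Igfbp5 1.44 and 1.78 against 3.62 (-0.88 ± 0.45). Both lactating libraries lay below the virgin library for these genes of Sox2 and stromal cells. Sox2 cells were 0.972% and 1.52% of cells in the lactating libraries against 3.06% in the virgin library, and their own levels of both genes, given above, were also below those of the virgin library. The stromal gate before revision went the other way, at 13.1% and 19.75% of cells against 6.63%. The revised stromal cells numbered 20 and 17 against 14. The part of either cell share was not tested. Igfbp3, at 0.1865 and 0.135 against 0.087, lay above it (1.125 ± 0.86). The virgin group is a single mouse, so no spread of its own was measured.

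Males were compared with females of 8 weeks over both platforms. Gh was higher in the male library of each of the 3 pairs (10X, the first and the second Drop-seq pair) over all cells, with ratios of 1.85, 1.17 and 2.13, in somatotropes (1.86, 1.37 and 1.48), in lactotropes (3.41, 1.07 and 2.83) and in gonadotropes (2.03, 2.83 and 2.83). It was also higher in macrophages (1.30, 2.497 and 8.88), taken above as a measure of free RNA. In melanotropes (1.93, 0.872 and 2.35) and Sox2 cells (1.03, 0.787 and 2.61) the pairs went both ways.

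None of these passed. The fitted Gh differences by edgeR were 0.71 ± 0.99 (log2) over all cells, 0.78 ± 0.52 in somatotropes and 0.91 ± 0.58 in lactotropes. With the pairs as a replicate block they were 0.86 (adjusted p = 0.96), 0.78 (adjusted p = 0.33) and 1.16 (adjusted p = 0.091). Without the first WT female library the lactotrope difference was 1.98 and passed (adjusted p = 0.0394). Of the members, 0 of 9 passed over all cells (0.113% of genes), 0 of 3 in somatotropes (0.273%) and 0 of 3 in lactotropes (0.6%), and DESeq2 called 0 (0.177% of genes over all cells).

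A single member had an unadjusted p under 0.05, Igfbp4 over all cells, and is described for that reason. The share of all genes that reached this p by sex is given below, with the other genes of the axis. Igfbp4 was 0.174, 0.375 and 0.1915 per 10000 in the females and 0.0945, 0.101 and 0.0980 in the males of the same pairs. The sexes thus did not overlap, and the share of all genes for which this holds is not given. Without pseudogene-rich cells the sexes did overlap, at 0.2446, 0.252 and 0.187 in the females and 0.198, 0.116 and 0.101 in the males. The difference of -1.095 ± 0.40 (log2, unadjusted p = 0.018) did not survive adjustment (adjusted p = 1.00; 0.41 with the replicate block), and DESeq2 gave the same count.

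**Figure D5:**
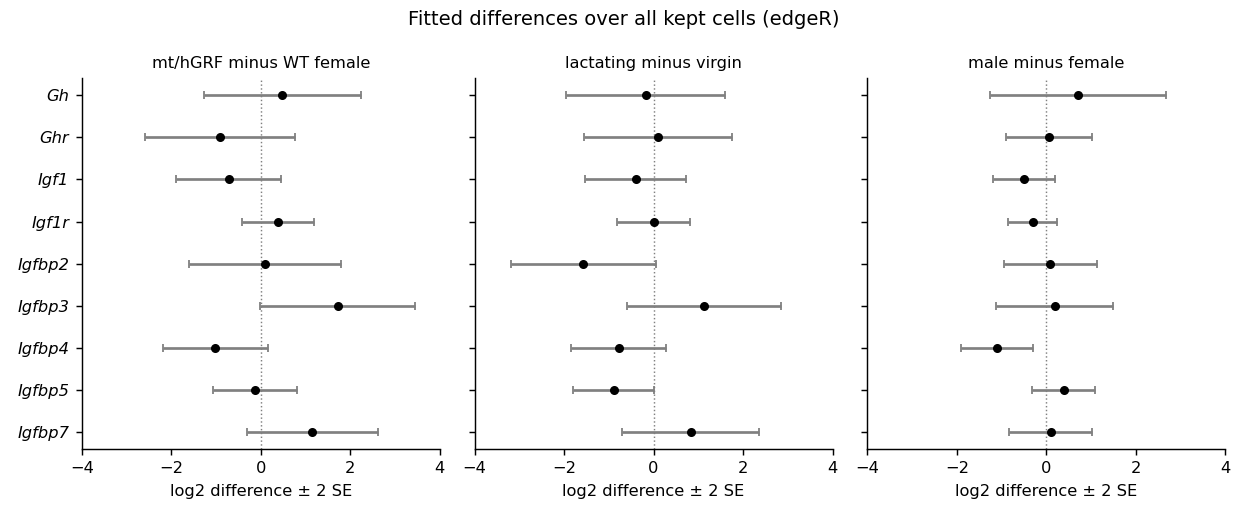
Fitted log2 differences of the 9 genes over all kept cells in the transgenic, lactation and sex comparisons (edgeR, points, with bars of 2 SE). All bars cross 0 except that of Igfbp4 in the sex comparison, which lies below 0, and none of the differences passed the threshold after adjustment.

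The other genes of the axis were read from a list of 28, of which 23 passed the filter over all cells. By edgeR 0 passed in the transgenic, lactation and sex comparisons, with 4, 1 and 4 at an unadjusted p under 0.05, which 9.84%, 1.72% and 3.29% of all genes reached. DESeq2 called 1, in the transgenic library, where it called 0.986% of all genes (181). This was Pappa2, named here after its value was seen, which encodes the protease PAPP-A2 that cuts IGFBP3 and IGFBP5. It stood at 0.857 per 10000 over all cells in the transgenic library, against 0.177 and 0.2205 in the WT females and 0.153 to 0.4575 in the other 7. The transgenic value was the highest of the 10 libraries (2.31 ± 0.46 against WT females, adjusted p = 0.22 by edgeR and 0.037 by DESeq2). Within somatotropes the transgenic value of 1.29 was closer to the 1.10 and 1.10 of the WT females (0.56 ± 0.76).

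Grb10, also named after its values were seen, encodes an adaptor that restrains insulin and IGF1 receptor signalling. It was 0.886 per 10000 over all cells in the transgenic library, against 0.333 and 0.244 in the WT females and at most 0.5835 elsewhere (1.82 ± 0.41, adjusted p = 0.23). In somatotropes it was 1.61 against 0.823 and 0.759 (1.37 ± 0.76). The transgenic value lay above both WT females without passing. Pappa2 and Grb10 were picked from the list, and its other genes with an unadjusted p under 0.05 here are not shown. The share of all genes above both WT females in this library is not given either, so these values are descriptions.

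Of the 28 genes 13 passed the filter of the class fit, which a gene high in 1 class can do through that class. The counts and log2 differences below are therefore descriptions, also beside the shares of all genes. Against the other classes, 7 of 13 tested list genes were higher in somatotropes and 0 were lower by edgeR, while 27.0% of all genes were higher. In the fit with at least 20 cells 5 of 7 were higher, against 21.5% of all genes. These were Pappa2 (2.88 ± 0.29), Grb10 (2.44 ± 0.23), Pou1f1 (2.11 ± 0.19), the lineage factor of somatotropes and lactotropes, and Cish (1.68 ± 0.28) and Socs2 (0.80 ± 0.24), which encode STAT5-induced inhibitors of cytokine signalling. With the revised lists 7 were tested and 2 were higher, Grb10 and Pou1f1, against 25.1% of all genes, while Pappa2 and Cish did not pass the filter and Socs2 was at 0.49 (adjusted p = 0.066).

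The genes whose levels were most like each member over 8 classes of the 8-week WT libraries were ranked by Pearson correlation among 3629 genes. The 8 classes are somatotropes, lactotropes, gonadotropes, melanotropes, Sox2 cells, macrophages, and the stromal and corticotrope gates before revision. Each r is therefore given with its value under the revised lists, also over 8 classes. Endothelial, mural and pituicyte cells are not among them. Of the 27 genes, 15 had r over 0.9 under both. For Gh this was Mphosph8 (0.9865 and 0.987), while Nsd3 (0.979 and -0.40) and Gbf1 (0.972 and 0.696) did not keep it.

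For Ghr the 3 genes were Col4a1 (0.977 and 0.974), Col4a2 (0.951 and 0.978) and Igfbp7 (0.936 and 0.988), of which the first encode chains of basement membrane collagen. For Igf1 they were Tmco1 (0.980 and 0.923), Atp5d (0.971 and 0.9095) and Oxct1 (0.953 and 0.314). For Igf1r all of them fell under 0.9 with the revised lists, with Gpr180 at 0.989 and 0.821, Ubr4 at 0.986 and 0.889, and Sf3b1 at 0.980 and 0.535.

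Among the binding protein genes, Igfbp7 kept Igfbp6 (0.956 and 0.9555), Bgn (0.956 and 0.982) and Ogn (0.953 and 0.967), which encode a further IGF binding protein and a pair of matrix proteoglycans. Igfbp2 had Fstl1 (0.987 and 0.995), Hes1 (0.962 and 0.988) and Ccdc80 (0.971 and 0.804). Igfbp5 had Ptrf (0.980 and 0.957), Ahnak (0.975 and 0.948) and Alad (0.979 and 0.3675). Igfbp4 had Sult1a1 (0.938 and 0.9505), Cp (0.930 and 0.956) and Sparc (0.910 and 0.870). Igfbp3 kept none, with Cep57 at 0.957 and 0.124, Id4 at 0.934 and 0.451, and Cntn1 at 0.925 and 0.168. Likeness over so few points thus depends on the gates, and the classes share libraries and differ in depth, so these are descriptions.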

How the data were processed

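Single-cell RNA from 10 mouse pituitary libraries was analysed from raw UMI counts per gene and barcode, the form in which the authors deposited them. Cells had been dissociated without enzymes. Drop-seq counts took strand-matched exonic reads aligned to the mm10 build (Gencode vM13 gene models) and merged UMIs up to an edit distance of 1, and 10X Genomics counts came from Cell Ranger (version not given in the sources used here). The submitters' processing notes name STAR 2.5.2a. Intronic reads were thus not counted by Drop-seq, and 3′ tags give no length-corrected level, so levels were not compared between genes.

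Barcodes were kept as cells from 300 UMIs and between 100 and 4000 genes by Drop-seq, and above 200 and under 3000 genes on the 10X platform, where under a share of 0.1 was mitochondrial. A cell entered a class when the UMIs of its marker list reached 2 and exceeded those of every other list, and red blood cells were taken first, at a share of at least 0.2 of UMIs. No doublets were removed before gating, and leaving out the 5% of cells with most UMIs was an alternative. Some list genes are also markers that the study found in these samples. Members and lists were chosen with earlier results of these data known. Revised lists and the limit of 150 ribosomal pseudogene UMIs per 10000 were chosen after seeing the data. Named genes are the 9 members, list genes past an adjusted p of 0.05, and the 3 genes most like each member by Pearson correlation of mean log2(UMIs per 10000 + 0.1).

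UMIs were summed per library and class (at least 10 cells) and compared by the two-sided quasi-likelihood F test of edgeR 4.0.16 in R 4.3.3, after filterByExpr and TMM scaling, with p-values adjusted by Benjamini-Hochberg over every gene tested. Class contrasts had a library term, condition fits used all 8 Drop-seq libraries so that a group of 1 library is assumed to vary like the others, and the sex fit had a platform term. Libraries come from 1 mouse or a pool of mice, so p-values measure the spread between libraries. Alternatives were DESeq2 1.42.0, RLE scaling, no filter, other gates, thinning (seed 7), other sets of libraries and leaving out each library. Intervals are exact Poisson or binomial at 95% and, like the limit of 3 counts behind a 0, cover counting error only. The shared code in the sample titles was taken to pair libraries. Female and male libraries of a platform and title code deviated together from the means of their sex (r = 0.877, 0.556 and 0.703 over 11508 genes). The platform difference is in these values, so they cannot show that the code marks a pair. The fits were tested on simulated data. Tables were handled with Python 3.11.15, pandas 2.3.3, numpy 2.4.6 and scipy 1.17.1, and plots with matplotlib 3.10.9.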

Additional observations from a re-analysis of the deposited data

How the results depend on the processing

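Of 648 alternative values with a test, 586 kept their direction and their side of the threshold, 44 reversed, 14 no longer passed and 4 newly passed. The reversed values are mainly condition differences that passed nowhere, and the cause was not tested. With the macrophage gate at 3 UMIs the lower Gh of macrophages was -0.95 (adjusted p = 0.057), with cells free of any other list's UMIs (pure gates) their lower Igf1r was -0.87 (adjusted p = 0.070), and the higher Igf1r of somatotropes was 0.51 in 8-week WT and 0.56 in 10X libraries alone. The Gh difference of gonadotropes was -0.36, -0.0553 and -0.20 in 8-week WT, Drop-seq and 10X libraries alone, -0.19 with at least 20 cells, -0.0192 with no filter and -0.995 with pure gates (adjusted p = 0.012), and that of lactotropes -0.23 in 10X libraries alone.

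With gates at 3 UMIs the lactotrope Gh difference was -1.36 for lactation and -0.50 for the transgenic library, and with pure gates -0.25 for the latter. Igf1r for lactation was -0.0103 over all cells by DESeq2, -0.0108 by RLE and -0.00242 without pseudogene-rich cells, and in lactotropes -0.44 and -0.56 with gates at 1 and 3 UMIs. Igfbp5 for lactation was 0.0040 in somatotropes with revised lists. In somatotropes of the transgenic library Igf1r was -0.20, -0.28 and -0.54 with gates at 1 and 3 UMIs and pure gates, and Igfbp5 was 0.06 by DESeq2, 0.0299 with no filter and 0.38 with gates at 1 UMI. For sex, Igfbp2 was -0.17 by Drop-seq alone and somatotrope Igfbp5 -0.28 with gates at 3 UMIs.

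Leaving out each library gave these ranges. For the transgenic library Gh was -0.21 to 1.80 over all cells and -0.22 to 2.24 in lactotropes, Igfbp2 -0.72 to 1.48 over all cells and -0.56 to 7.49 in Sox2 cells (the upper value against a library at 0, so no bound), Igfbp5 -0.54 to 0.42 over all cells and -0.36 to 1.56 in somatotropes, and somatotrope Igf1r -0.0161 to 1.47, with the WT female libraries at the ends. For lactation Gh was -0.74 to 0.24 over all cells and -0.21 to 0.83 in lactotropes, and Igf1r -0.30 to 0.27, with the lactating libraries at the ends. For sex, lactotrope Gh was 0.45 to 1.98 (0 to 1 members passing, the 1 without the first WT female library), and over all cells Ghr was -0.44 to 0.44, Igfbp2 -0.34 to 0.86, Igfbp3 -0.21 to 0.61 and Igfbp7 -0.45 to 0.44, with somatotrope Igf1r -0.0731 to 0.32.

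The replicate block of paired libraries changed no member call, and moved the genes called by sex from 14 to 34 over all cells, from 18 to 45 in lactotropes and from 11 to 15 in somatotropes. Over all genes, the transgenic comparison called 1 over all cells (0 by RLE, 181 by DESeq2, 624 with no filter), 14 in somatotropes (0 by DESeq2, 99 against all 4 WT libraries), 6 in lactotropes (0 to 34), 5 in Sox2 cells (0 to 24) and 3 in macrophages (0 to 46). Lactation called 2 over all cells (0 to 15) and 1 in each gate (up to 2). Sex called as few as 3 over all cells (Drop-seq alone) and 1 in lactotropes. Class contrasts called 566 to 3546 in somatotropes, 821 to 2704 in lactotropes, 375 to 1419 in gonadotropes, 825 to 4992 in melanotropes, 334 to 2376 in Sox2 cells and 1441 to 4145 in macrophages. Sex within the 10X platform is 1 library against 1 and has no test. At this depth Ghr, Igf1 and Igfbp3, with 117, 217 and 242 UMIs in all, could be described but rarely tested.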
